A study of Homo sapiens with 3 samples.

Results

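Enzymes that oxidise and conjugate foreign chemicals and reactive aldehydes were measured in HCC827 cells, a human line derived from a lung adenocarcinoma that carries a mutant, active EGFR. The genes were chosen by symbol alone: cytochromes P450 (CYP, leaving out the sterol demethylase gene CYP51A1), UDP-glycosyltransferases (UGT), aldehyde dehydrogenases (ALDH, leaving out ALDH1L2) and cytosolic or mitochondrial glutathione transferases (GST of the classes A, K, M, O, P, T and Z). They were 111 of the 20332 genes in the table. By family they were 54 CYP, 22 UGT, 18 ALDH and 17 GST genes.

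RNA sequencing covered 3 libraries, 1 each from cells given DMSO vehicle, compound 1 or compound 2. Both compounds were labelled at 5 μM for 24 h, and no time was given for the DMSO cells. The series title names daphnane diterpenoids, which are plant compounds, and a DNA damage response controlled by the kinase ATR; the sources used here do not say how the structures of compounds 1 and 2 differ. Each group was 1 library, so no value below has a replicate error, no test was possible and each difference is one between 2 libraries. The same DMSO library served both compounds.

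Values were in TPM, the share of a library's transcripts that a gene takes after correction for length, so they can be compared between genes. Ratios are log2 ratios of TPM + 1, which understate the change of low genes, and 2-fold means a log2 ratio of at least 1 in size. From the steps between low values, a single read on 1 kb of transcript would amount to some 0.116, 0.108 and 0.123 TPM in the DMSO, compound 1 and compound 2 libraries. Read numbers given below are estimates from these steps and the longest annotated transcript, and they speak to counting error only. Each library had 14154 to 14473 genes above 0. All 6 epithelial markers were measured in every library, with summed levels of 13665 TPM in the DMSO library, 6591 TPM after compound 1 and 5622 TPM after compound 2. The keratin genes KRT8, KRT18 and KRT19 carried the lower sums, while CDH1, EPCAM and CLDN4 were above DMSO after both compounds. Of the lung markers, NAPSA and NKX2-1 were measured, while SFTPC was listed at 0 throughout and SFTPB at no more than 0.186 TPM. Summed levels of hepatocyte, fibroblast, leukocyte and endothelial markers stayed between 0.074 and 1.90 TPM in every library. In bulk RNA, fewer cells of a kind and less RNA per cell cannot be told apart, and the part of the keratin and lung marker levels in the results below was not tested.

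Detoxification is usually taught in phases. P450 enzymes insert an oxygen atom into a lipophilic substrate with electrons passed on by POR, aldehyde dehydrogenases oxidise the aldehydes that arise from alcohols, lipids, amines and retinal, and transferases then attach glutathione or a sugar so that the product can be exported. Many of the same families also act on the body's own molecules, and these members make or break retinoic acid, vitamin D, leukotrienes and fatty acids. In airway epithelium, P450 genes of family 1 are known for their induction through the aryl hydrocarbon receptor AHR, and several GST and ALDH genes for regulation by NRF2, the factor that answers electrophiles.

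Most of the repertoire was at or near 0. In all, 50 of the 111 genes were listed at 0 in all 3 libraries and 29 were above 0 with a mean under 1 TPM, which left 32 genes that averaged 1 TPM or more: 12 CYP, 1 UGT, 12 ALDH and 7 GST genes. Genes at this level are called measured below. Of all 20332 genes in the table, 11600 were measured in this sense and 4883 were listed at 0 in all 3 libraries. The P450 genes that dominate hepatic drug oxidation, CYP3A4, CYP2C8, CYP2C19 and CYP1A2, were listed at 0 in every library, and CYP2D6 was listed at 0, 0 and 0.090 TPM in the DMSO, compound 1 and compound 2 libraries. ALDH3A1, a detoxifying enzyme of cornea and airway, was listed at 0 in all 3 libraries. ALDH1A1, the retinal dehydrogenase often used as a stem cell marker, was at 0.386 TPM in the DMSO library, 0.051 TPM after compound 1 and 0 after compound 2. Just under the limit stood CYP3A5, a drug-oxidising P450, with 0.724, 0.938 and 1.08 TPM in the DMSO, compound 1 and compound 2 libraries, and just above it CYP2U1, a fatty acid hydroxylase gene, with 1.26, 1.21 and 1.47 TPM.

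Of 22 UGT genes, 18 were listed at 0 in all 3 libraries. Of the 9 UGT1A genes, which share their last exons, 8 were at 0 throughout, and UGT1A6 stood at 0.141 TPM with DMSO and at 0 after both compounds. Shared sequence limits what these zeros say: 59.4% of the 31-base words of the longest UGT1A6 transcript also occur in other genes, and 80.8% of those of UGT1A8, so reads from those stretches cannot be given to 1 gene. How such reads were treated is not given in the sources used here. UGT2B7, a glucuronosyltransferase of opioids and steroids, was at 1.30 TPM in the DMSO library, 0.456 TPM after compound 1 and 0.422 TPM after compound 2.

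GST genes gave the highest level of the 4 families in each library, and the ALDH genes came next. The 17 GST genes summed to 1285 TPM in the DMSO library, 916 TPM after compound 1 and 979.7 TPM after compound 2, so their total was 0.713 and 0.762 times that of DMSO. The 18 ALDH genes summed to 598 TPM, 698 TPM and 812 TPM in the same order, 1.17 and 1.36 times DMSO. For the 54 CYP genes the totals were 145, 138 and 97.1 TPM, and for the UGT genes 11.1, 8.70 and 10.8 TPM. One gene carried much of each family. GSTP1 held 76.5% of the GST total in the DMSO library and 57.5% after compound 2. ALDH1A3 held 28.0%, 43.6% and 58.0% of the ALDH total in the DMSO, compound 1 and compound 2 libraries.

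**Figure D1:**
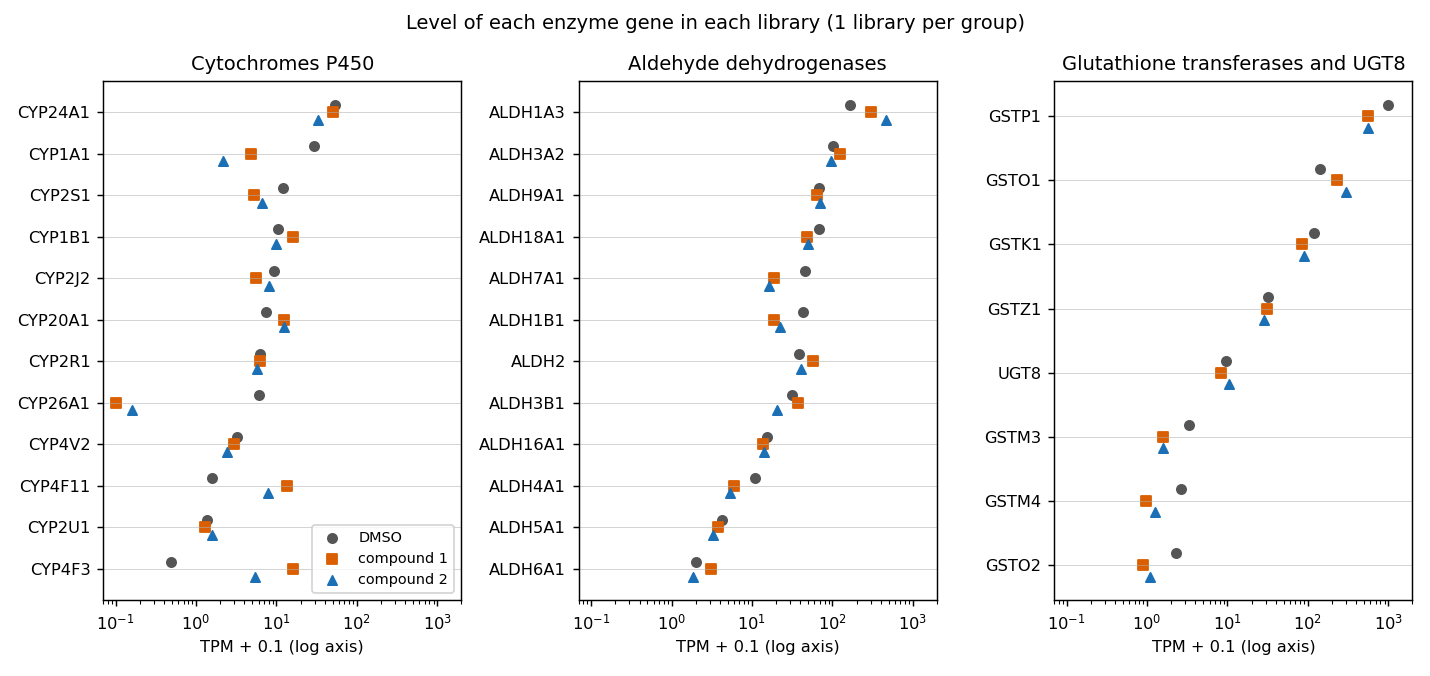
TPM + 0.1 on a log axis for the 32 enzyme genes that averaged 1 TPM or more, 1 row per gene, with a circle for the DMSO library, a square for compound 1 and a triangle for compound 2. GSTP1 is the highest gene in every library (984, 567 and 563 TPM), and CYP4F3, CYP4F11, CYP1A1 and CYP26A1 show the widest gaps between DMSO and the compounds.

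After compound 1, 2 of the 32 measured genes were at least 2-fold higher than in the DMSO library (6.25%), where 14.7% of all 11600 measured genes were. At least 2-fold lower were 5 of 32 (15.6%), beside 8.09% of all genes. The median log2 ratio was -0.11 over the 32 genes and 0.11 over all genes. After compound 2, 4 of 32 were at least 2-fold higher (12.5%), beside 12.6% of all genes, and 3 were lower (9.38%), beside 6.56%. The median was -0.24 over the 32 genes and 0.09 over all. With 32 genes and no replicates, none of these shares is told apart from that of all genes. CYP26A1, counted as lower after both compounds, averaged 1 TPM or more through the DMSO library alone, so the filter itself favoured that call. With a mean of at least 5 TPM it dropped out. Then 4 of 24 genes were lower after compound 1 and 2 after compound 2, beside 7.72% and 5.83% of all genes. Scaling mattered for the split after compound 2, which was 4 higher and 3 lower as deposited, 3 and 4 with median-of-ratios scaling and 3 and 5 with upper-quartile scaling. Median-of-ratios scaling brought the median of all genes after compound 1 from 0.11 to 0.01. With the trend in length and GC content across genes removed, 3 and 6 genes were higher and lower after compound 1, and 4 and 5 after compound 2.

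**Figure D2:**
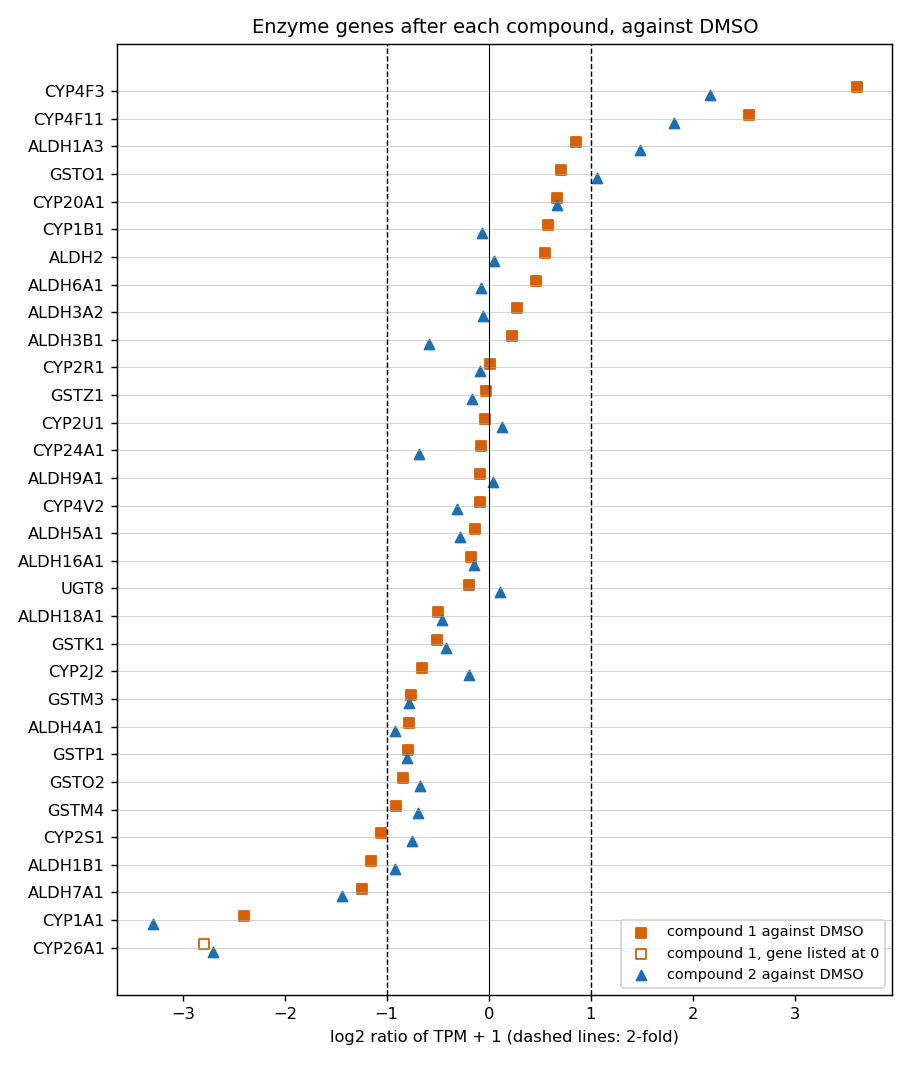
Log2 ratio of TPM + 1 against the DMSO library for each of the 32 genes, with orange squares for compound 1, blue triangles for compound 2 and dashed lines at 2-fold; an open square marks a gene listed at 0. Both CYP4F genes lie beyond the right line after both compounds, and CYP1A1, CYP26A1 and ALDH7A1 beyond the left line.

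Promoter windows, from 250 bases before to 50 after the start of each gene, were taken from RefSeq on GRCh38.p14, which matched 28 of the 32 genes with 39 windows; ALDH2, ALDH16A1, CYP1B1 and CYP24A1 were not matched. Searched on both strands were GCGTG, the core of the element that AHR and ARNT bind, and TGACNNNGC, the core of the antioxidant response element that NRF2 binds. CYP4F11, GSTO1 and GSTP1 are shown because they hold the antioxidant core and lay on different sides of DMSO, and CYP1A1 because it is the classic AHR target. They were chosen after their values were seen, and capitals mark the matches.

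CYP1A1, chr15:74725479-74725778, minus strand: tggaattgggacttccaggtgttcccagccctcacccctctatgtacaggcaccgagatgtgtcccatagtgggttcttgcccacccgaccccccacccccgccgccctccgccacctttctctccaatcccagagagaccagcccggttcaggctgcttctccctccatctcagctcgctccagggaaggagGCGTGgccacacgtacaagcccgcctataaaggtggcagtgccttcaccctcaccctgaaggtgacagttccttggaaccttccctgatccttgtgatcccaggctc
CYP4F11, chr19:15934818-15935117, minus strand: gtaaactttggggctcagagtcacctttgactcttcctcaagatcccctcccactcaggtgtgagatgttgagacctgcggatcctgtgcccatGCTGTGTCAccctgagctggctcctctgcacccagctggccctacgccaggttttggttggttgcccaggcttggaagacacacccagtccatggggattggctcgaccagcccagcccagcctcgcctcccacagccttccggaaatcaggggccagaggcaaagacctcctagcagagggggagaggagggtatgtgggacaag
GSTO1, chr10:104254642-104254941, plus strand: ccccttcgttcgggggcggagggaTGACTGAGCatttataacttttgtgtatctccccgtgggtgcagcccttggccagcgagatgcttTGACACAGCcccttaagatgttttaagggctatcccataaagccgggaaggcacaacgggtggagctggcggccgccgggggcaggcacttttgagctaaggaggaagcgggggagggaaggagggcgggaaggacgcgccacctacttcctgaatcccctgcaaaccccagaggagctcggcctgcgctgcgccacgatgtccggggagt
GSTP1, chr11:67583562-67583861, plus strand: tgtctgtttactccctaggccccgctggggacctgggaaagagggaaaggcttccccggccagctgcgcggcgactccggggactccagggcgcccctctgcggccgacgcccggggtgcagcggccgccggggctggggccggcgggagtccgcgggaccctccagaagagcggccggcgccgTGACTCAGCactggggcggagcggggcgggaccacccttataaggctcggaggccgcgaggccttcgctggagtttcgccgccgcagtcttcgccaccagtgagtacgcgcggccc

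CYP1A1 holds GCGTG at position -57 from the start, counted at its first base. CYP4F11 holds the antioxidant core at position -156, which reads TGACACAGC on the opposite strand; a second CYP4F11 window in the table holds none. GSTO1 holds it at positions -226 and -161, the second with the same letters TGACACAGC, and GSTP1 at position -66. The RefSeq start of GSTO1 lies inside the GENCODE 29 span of that gene given below. Across all 35116 windows 13.3% held TGACNNNGC, against 10.3% of the 39 windows of these genes, and 36.5% held GCGTG, against 35.9%. In all, 4 of 28 genes held the antioxidant core, the fourth being CYP4V2, and 13 of 28 held GCGTG. A match is a description of these letters and not a binding site.

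Among the P450s the widest differences from DMSO were in genes of fatty acid hydroxylation, retinoid breakdown and the AHR response. CYP4F3 encodes an omega-hydroxylase of leukotriene B4 (ENSG00000186529, GENCODE 29 on GRCh38, chromosome 19, 15640897 to 15662825). Its level was 0.388 TPM in the DMSO library, 16.0 TPM after compound 1 and 5.25 TPM after compound 2. Both compound libraries were far above DMSO, compound 1 the higher. The log2 ratios were 3.61 and 2.17, the first being the 27th highest of 11600 genes. The DMSO value would rest on only about 17 reads, against about 747 after compound 1 and 216 after compound 2. CYP4F11, which encodes an omega-hydroxylase of fatty acids and vitamin K (ENSG00000171903, chromosome 19, 15912367 to 15934867), stood at 1.47, 13.5 and 7.69 TPM in the DMSO, compound 1 and compound 2 libraries. Its log2 ratios were 2.55 after compound 1 and 1.82 after compound 2, so the order of the libraries was that of CYP4F3. With a pseudocount of 5, both genes came under 2-fold after compound 2 (0.93 for CYP4F3 and 0.97 for CYP4F11).

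These 2 genes belong to a tandem cluster of 6 CYP4F genes on chromosome 19 and lie 249541 bases apart. The other members of the cluster were near or at 0: CYP4F22 and CYP4F8 were listed at 0 in all 3 libraries, CYP4F12 stood at 0.069 TPM with DMSO and at 0 after both compounds, and CYP4F2 was at 0.046 TPM after compound 1 and at 0 in the others. CYP4F3 shares 21.9% of its 31-base words with other genes, 14.6% with CYP4F2, so its split from CYP4F2 is uncertain. CYP4F11 shares 6.0%, 3.7% of it with CYP4F3. Other hydroxylases of fatty acids lay closer together as deposited: CYP4V2 was at 3.13, 2.89 and 2.33 TPM, and CYP2U1 was as given above. The log2 ratios of CYP4V2 were -0.09 and -0.31, and -0.799 and -0.975 without the length and GC trend. CYP2J2, an epoxygenase of arachidonic acid, was at 9.23 TPM in the DMSO library, 5.51 TPM after compound 1 and 7.94 TPM after compound 2.

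CYP1A1, whose promoter window is printed above, is the classic AHR target and oxidises polycyclic aromatic hydrocarbons (ENSG00000140465, chromosome 15, 74719542 to 74725610). Its level was 29.1 TPM in the DMSO library, 4.73 TPM after compound 1 and 2.07 TPM after compound 2, or about 674, 117 and 45 reads. Both compound libraries were lower and compound 2 was the lowest. The log2 ratios were -2.40 and -3.30, the latter the 16th lowest of 11600 genes. CYP1A1 shares 1.1% of its 31-base words with another gene, its neighbour CYP1A2, which was listed at 0 throughout. CYP1B1, a second AHR target, did not go with it. CYP1B1 was at 10.3, 16.0 and 9.82 TPM in the DMSO, compound 1 and compound 2 libraries, with log2 ratios of 0.58 and -0.06. Its exons overlap those of RMDN2 and of the antisense gene CYP1B1-AS1 on the other strand, and strand-specific counting is not stated.

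Other genes of the AHR pathway were set beside CYP1A1. AHR, the receptor, was at 21.2 TPM in the DMSO library, 31.5 TPM after compound 1 and 27.8 TPM after compound 2. Its partner ARNT was at 10.8, 19.3 and 21.2 TPM. The repressor gene AHRR was at 1.18, 0.804 and 0.882 TPM. TIPARP, an AHR target that encodes a mono-ADP-ribosyltransferase, was at 44.9, 116 and 121 TPM, with log2 ratios of 1.35 and 1.41. Within this pathway, then, CYP1A1 was lower after both compounds where TIPARP was higher. Of the 9 measured genes reported here from the wider list of xenobiotic receptors and regulators, 3 were at least 2-fold higher after compound 1 and 1 after compound 2. Over all genes the shares were 14.7% and 12.6%. Beside TIPARP the genes counted were PPARA, a receptor for fatty acids (1.17 and 0.75), and NFE2L2, which encodes NRF2 (1.01 and 0.87). The drug-sensing receptor genes NR1I2 and NR1I3 did not pass 0.099 TPM in any library.

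CYP26A1 breaks down retinoic acid and is itself induced by it (ENSG00000095596, chromosome 10, 93073475 to 93077890). Its level was 5.91 TPM in the DMSO library; it was listed at 0 after compound 1 and at 0.058 TPM after compound 2. The DMSO value would rest on about 114 reads and that after compound 2 on about 1. CYP26A1 counts as measured through the DMSO library alone. After compound 2 the log2 ratio was -2.71; against a library at 0 no fold is given for compound 1. CYP26B1, a relative with the same activity, was at 0.550, 0.680 and 0.109 TPM in the DMSO, compound 1 and compound 2 libraries.

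The P450s of vitamin D were of another kind. CYP24A1, which inactivates vitamin D, was the highest P450 gene in every library (ENSG00000019186, chromosome 20, 54153449 to 54173973). Its level was 53.2 TPM in the DMSO library, 50.4 TPM after compound 1 and 32.7 TPM after compound 2, so only the compound 2 library stood apart (log2 ratios -0.08 and -0.69). CYP2R1, which performs the first activating hydroxylation, was at 6.12, 6.18 and 5.72 TPM. CYP27B1, which performs the second, was at 0.878, 0.408 and 0.156 TPM, under the limit of 1 TPM. VDR, the vitamin D receptor gene, was at 24.4, 32.9 and 37.2 TPM.

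CYP2S1, a P450 found mainly outside the liver, was at 11.8 TPM in the DMSO library, 5.15 TPM after compound 1 and 6.61 TPM after compound 2. Its log2 ratios were -1.06 and -0.75, and the first was -0.67 once the length and GC trend was removed. CYP20A1, an orphan P450 with no settled substrate, was at 7.42, 12.4 and 12.4 TPM, with log2 ratios of 0.67 after both compounds. It shares 11.2% of its 31-base words with other genes. Of the 8 genes for P450 electron donors and partners, none was 2-fold higher after either compound and CYB5A alone was lower. Of all genes, 14.7% were higher and 8.09% lower after compound 1, and 12.6% and 6.56% after compound 2. CYB5A, the cytochrome b5 gene, was at 107, 46.9 and 50.4 TPM. POR, which passes electrons to the microsomal P450s, was at 67.8 TPM in the DMSO library, 103 TPM after compound 1 and 64.7 TPM after compound 2.

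ALDH1A3 was the highest aldehyde dehydrogenase gene in each library. It encodes an enzyme that makes retinoic acid from retinal (ENSG00000184254, chromosome 15, 100877714 to 100916626). Its level was 167 TPM in the DMSO library, 304 TPM after compound 1 and 471 TPM after compound 2. Both compound libraries were above DMSO, and compound 2 was above compound 1. The log2 ratios were 0.86 and 1.49, so it passed 2-fold after compound 2. No 31-base word of its longest transcript occurs in the longest transcript of another gene compared. Its exons overlap those of AC015712.5 on the same strand and of AC015712.2 on the other. In CYP4F3 and CYP4F11, also lowest in the DMSO library, compound 1 was above compound 2 instead.

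Other retinoid genes were set beside ALDH1A3 and CYP26A1. Of 12 measured genes of retinoid and vitamin D handling, 1 was at least 2-fold higher and 2 were lower after compound 1. After compound 2 none was higher and 2 were lower. Over all genes 14.7% were higher and 8.09% lower after compound 1, and 12.6% and 6.56% after compound 2. RDH10, the retinol dehydrogenase gene that supplies retinal, was at 66.1, 134 and 88.6 TPM in the DMSO, compound 1 and compound 2 libraries (log2 ratios 1.00 and 0.42). CRABP2, the carrier of retinoic acid to the nucleus, was at 1486, 383 and 473 TPM (-1.96 and -1.65). RARA, a retinoic acid receptor gene, was at 36.9, 16.3 and 14.6 TPM (-1.13 and -1.28). DHRS3, which turns retinal back into retinol, was at 34.1, 36.5 and 30.4 TPM.

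ALDH7A1, which acts in lysine breakdown (ENSG00000164904, chromosome 5, 126531200 to 126595418), had levels of 45.5, 18.6 and 16.2 TPM in the DMSO, compound 1 and compound 2 libraries. It was at least 2-fold lower after both (log2 ratios -1.25 and -1.44). ALDH1B1, a mitochondrial enzyme for acetaldehyde and related aldehydes (ENSG00000137124, chromosome 9, 38392664 to 38398661), was at 43.3, 19.0 and 22.4 TPM. Its log2 ratios of -1.15 and -0.92 fell on either side of 2-fold, and the second was -1.01 under median-of-ratios scaling. ALDH4A1, which completes proline breakdown, was at 10.9, 5.92 and 5.29 TPM (-0.78 and -0.92). Its TPM after compound 2 was 0.486 times the DMSO value, and that log2 ratio was -1.01 under upper-quartile scaling. ALDH18A1, which starts proline synthesis, was at 68.1, 47.9 and 49.2 TPM (-0.50 and -0.46). ALDH5A1, which oxidises succinic semialdehyde, was at 4.11, 3.66 and 3.20 TPM. ALDH6A1, of valine breakdown, was at 1.91, 3.02 and 1.77 TPM; it shares 18.3% of its 31-base words with other genes, BBOF1 the closest, so its value is uncertain.

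Of the 12 measured ALDH genes, those past 2-fold in any comparison, with log2(TPM + 1) taken here from the deposited values, were ALDH1A3, ALDH7A1 and ALDH1B1. ALDH3A2, the fatty aldehyde dehydrogenase gene, was at 102, 123 and 97.5 TPM in the DMSO, compound 1 and compound 2 libraries (log2 ratios 0.27 and -0.06). ALDH9A1, which acts in carnitine synthesis, was at 68.5, 64.7 and 70.6 TPM (-0.08 and 0.04), and its sign differed between scalings after compound 2. ALDH2, the main enzyme for acetaldehyde, was at 38.9, 57.5 and 40.4 TPM, with compound 1 the highest. Its log2 ratios of 0.56 and 0.06 were -0.06 and -0.53 without the length and GC trend. ALDH2 shares 17.5% of its 31-base words with other genes, so its value is uncertain. ALDH3B1, which acts on lipid-derived aldehydes, was at 31.4, 36.9 and 20.6 TPM, with compound 2 the lowest. ALDH16A1 was at 15.5, 13.7 and 14.0 TPM. Among other oxidoreductases and hydrolases, none of 13 measured genes passed 2-fold after either compound on the scale of log2(TPM + 1). Of all genes, 14.7% were higher and 8.09% lower after compound 1, and 12.6% and 6.56% after compound 2. NQO1, the quinone reductase gene, was the highest of the 13 at 1247, 1134 and 926 TPM. FMO4, a low gene of the 13, was at 2.01, 3.50 and 4.51 TPM (log2 ratios 0.58 and 0.87). Only the pseudocount of 1 kept FMO4 within 2-fold after compound 2.

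In the GST family, GSTO1 stood above DMSO after both compounds and the other 6 measured members below it, GSTZ1 barely so after compound 1 (log2 ratio -0.03). These sides were kept under each scaling tried, but the scalings reuse the same 3 libraries and replicate nothing. The share of all genes below DMSO was not counted. GSTP1, the pi-class enzyme that is abundant in many carcinomas (ENSG00000084207, chromosome 11, 67583595 to 67586656), had levels of 984, 567 and 563 TPM in the DMSO, compound 1 and compound 2 libraries. The compound libraries were nearly equal, with log2 ratios of -0.79 and -0.80. Without the length and GC trend these were -0.33 and -0.30. GSTO1, an omega-class enzyme with thioltransferase activity (ENSG00000148834, chromosome 10, 104235356 to 104267459), was at 141, 230.4 and 295 TPM. Its log2 ratio was 0.71 after compound 1 and 1.06 after compound 2, and the second was 0.97 with median-of-ratios scaling and 0.96 with upper-quartile scaling.

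GSTO2, which lies 1413 bases beyond GSTO1, was at 2.18 TPM in the DMSO library, 0.781 TPM after compound 1 and 0.997 TPM after compound 2. The neighbours thus lay on opposite sides of DMSO, the second at a level that would rest on about 121, 46 and 52 reads. GSTM3 was at 3.23, 1.49 and 1.47 TPM and GSTM4 at 2.51, 0.863 and 1.16 TPM, both mu-class genes. GSTM4 overlaps GSTM2 and shares 20.8% of its 31-base words, so its split is uncertain, and GSTM1, GSTM2 and GSTM5 were listed at 0 in every library. Without the length and GC trend, GSTO2 (-1.30 and -1.08) and GSTM3 (-1.05 and -1.08) were past 2-fold. With log2(TPM + 1) taken here from the deposited values, GSTO2, GSTM3 and GSTM4 stayed within 2-fold, with ratios between -0.91 and -0.67. As deposited, their TPM in the compound libraries were between 0.344 and 0.463 times the DMSO values, so the pseudocount of 1 kept them within 2-fold. GSTK1, a kappa-class enzyme of mitochondria and peroxisomes, was at 120.1, 84.1 and 89.5 TPM (log2 ratios -0.51 and -0.42). GSTZ1, which acts in tyrosine breakdown, was at 31.8, 31.1 and 28.3 TPM.

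UGT8 was the one UGT gene with a mean of at least 1 TPM. It adds galactose to ceramide, a step of myelin lipid synthesis, and is not a drug glucuronosyltransferase. Its levels of 9.61, 8.25 and 10.4 TPM in the DMSO, compound 1 and compound 2 libraries lay close together (log2 ratios -0.20 and 0.11, the second -0.37 without the length and GC trend). Other conjugating enzymes were set beside it: of the 11 measured genes reported here, 1 was at least 2-fold higher after each compound, and 2 were lower after compound 1 and 3 after compound 2, beside 14.7% higher and 8.09% lower of all genes after compound 1 and 12.6% and 6.56% after compound 2. UGDH, which makes the UDP-glucuronate that glucuronosyltransferases consume, was at 143, 554 and 336 TPM (1.95 and 1.23). NNMT, which methylates nicotinamide, was at 72.8, 11.2 and 10.5 TPM (-2.60 and -2.69). SULT1B1, a sulfotransferase gene, was at 3.09, 0.669 and 0.562 TPM. SULT1A3, which has a near-identical copy so that its value is uncertain, was at 103, 74.1 and 44.1 TPM. Of 9 efflux transporter genes none was 2-fold different after compound 1, and ABCC6 alone was after compound 2 (5.00, 2.18 and 1.22 TPM in the DMSO, compound 1 and compound 2 libraries).

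Medians of the lists reported in full were set beside those of all genes, whose median log2 ratios were 0.11 after compound 1 and 0.09 after compound 2. They were -0.15 and -0.09 for the 8 P450 partners and -0.14 and -0.30 for the 13 other oxidoreductases and hydrolases. For the 9 efflux transporters they were 0.23 and -0.04, and for the 12 genes of retinoid and vitamin D handling 0.05 and -0.26. On the scale of log2(TPM + 1), no gene reported here from any of the lists was 2-fold different between compound 2 and compound 1. That scale understates low genes. ABCG2 was at 5.255 TPM after compound 1 and 2.28 TPM after compound 2 (-0.93), and PON3 at 2.41 and 1.06 TPM (-0.73). Of all genes, 0.293% were higher and 0.552% lower in that comparison.

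**Figure D3:**
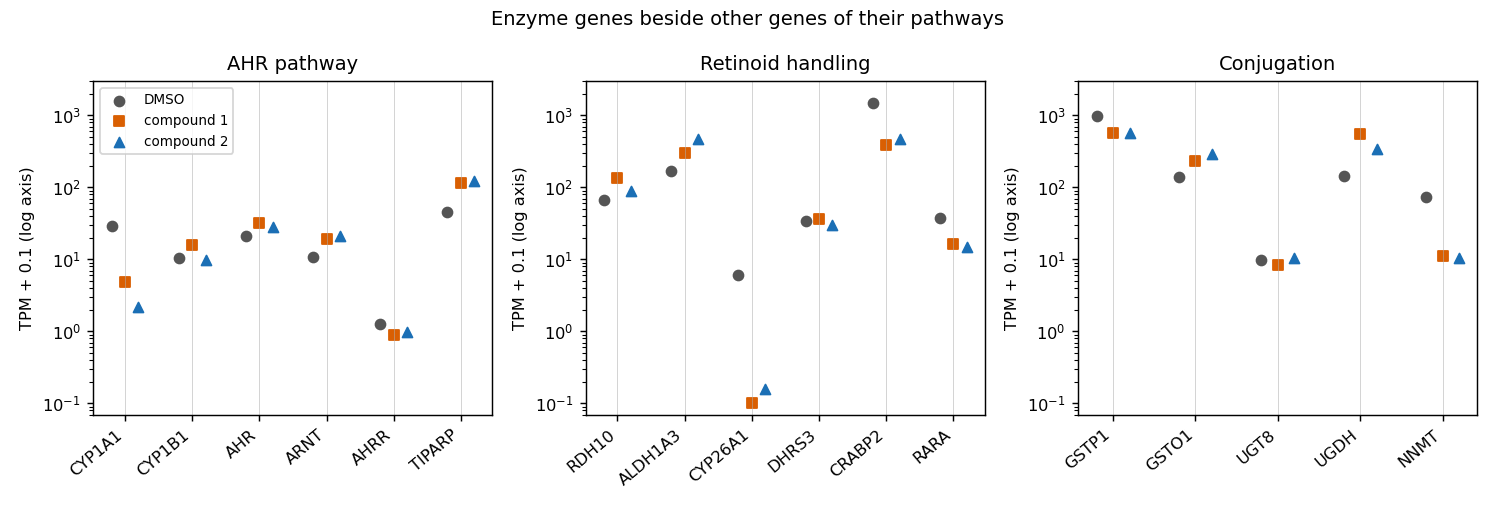
TPM + 0.1 on a log axis in the DMSO (circle), compound 1 (square) and compound 2 (triangle) libraries for genes of the AHR pathway, of retinoid handling and of conjugation. CYP1A1 (29.1, 4.73 and 2.07 TPM) and TIPARP (44.9, 116 and 121 TPM) lie on opposite sides of DMSO, and so do ALDH1A3 (167, 304 and 471 TPM) and CRABP2 (1486, 383 and 473 TPM).

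Compound 2 was then set against compound 1, which shared the dose and the time. None of the 32 genes was at least 2-fold higher, beside 0.293% of all 11600 genes, and 1 was at least 2-fold lower (3.12%), beside 0.552%. The median log2 ratio was -0.01 over the 32 genes and -0.01 over all. The gene past 2-fold was CYP4F3, at 5.25 TPM after compound 2 and 16.0 TPM after compound 1 (log2 ratio -1.44, the 19th lowest of 11600). CYP1A1 came next (-0.90, with 2.07 and 4.73 TPM), then ALDH3B1 (-0.81) and CYP4F11 (-0.73). At the other end ALDH1A3 was at 471 TPM after compound 2 and 304 TPM after compound 1 (0.63), followed by CYP2J2 (0.46) and GSTO1 (0.35). GSTP1 (-0.01), CYP20A1 (0.00) and GSTM3 (-0.01) were almost equal in both. In all, 7 of 32 genes differed by at least 1.5-fold between the compounds, and the share of all genes at that limit was not counted. The median size of the log2 ratio was 0.22 over the 32 genes and 0.16 over all 11600. With 1 library per compound no interval can be put on these differences, so neither a difference nor likeness of the compounds is shown for any gene.

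**Figure D4:**
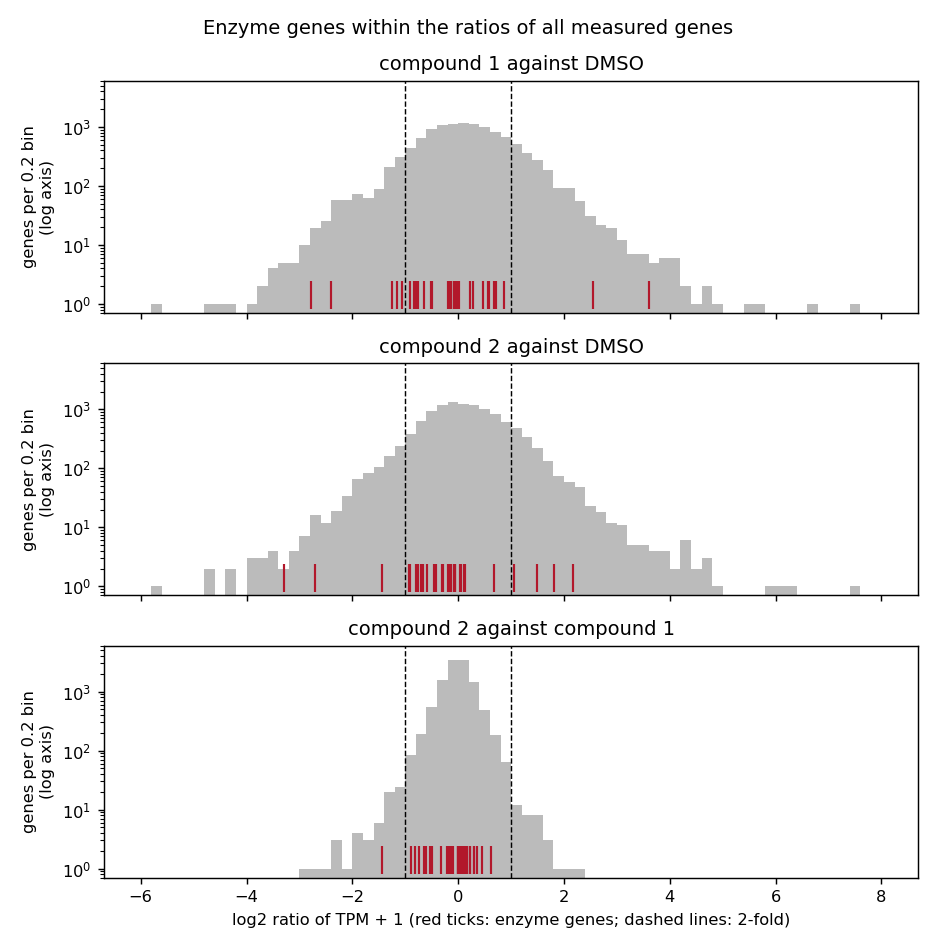
Histograms of the log2 ratio of TPM + 1 over all 11600 measured genes (grey, counts on a log axis) for the 3 comparisons, with the 32 enzyme genes as red ticks and 2-fold as dashed lines. In the comparison of the compounds 1 enzyme gene, CYP4F3 at -1.44, lies outside the lines.

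Of the 32 genes, 6 were above DMSO and 18 below it after both compounds, and 8 lay on opposite sides. With median-of-ratios scaling these numbers were 5, 20 and 7, and without the length and GC trend 6, 22 and 4. The sides of all genes were not counted, so no share stands beside these numbers. At least 2-fold higher after both were CYP4F3 and CYP4F11, and at least 2-fold lower after both were CYP1A1, CYP26A1 and ALDH7A1. Because both comparisons share the DMSO library, its own deviation would enter both. For 14 of the 32 genes an exon overlaps one of another gene, and 6 share over 10% of their 31-base words with other genes. The 6 are CYP4F3, GSTM4, ALDH6A1, ALDH2, CYP20A1 and ALDH16A1.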

How the data were processed

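Per the labels, RNA of 3 HCC827 cultures was extracted with Trizol and prepared with an Illumina TruSeq kit. Bowtie 0.12.2 and the builds GRCh38.p12 and mm8 are listed, with no role, per the submitters' processing notes; the sources used here do not give how reads were counted, on which annotation or with what strand setting. The values were deposited by the authors as 1 table headed FPKM, but each column sums to 1000000, so the values are TPM and were treated as such. Read counts were not used, and depth is an estimate: with the steps given, 53.8% to 57.1% of low values of genes with 1 transcript lay within 0.1 of a whole read, and the steps were fitted to those values.

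Computed here, with Python 3.11.15, were log2 ratios of TPM + 1 for genes averaging 1 TPM or more, counts past 2-fold, and the 31-base words that the longest GENCODE 29 transcripts share between genes. These words were compared only among the 20089 of the 20332 genes with a GENCODE 29 transcript. GENCODE 29 held 109 of the 111 genes. No test was run, since each group is 1 library. The ratio code was run on simulated libraries in which only well expressed genes were changed, without read sampling, so that run does not cover low genes. All 32 genes were given, with ratios for those past 2-fold, the 3 highest of each family and others where described. The members, lists, promoters shown and genes of the pathway plot were chosen with earlier results of these data known. Alternatives were 2 pseudocounts, 2 filters, 2 scalings and subtraction of the length and GC trend in 20 bins. Some genes of the lists of conjugating enzymes and of receptors are not reported here, so their counts cover the rest and no median is given.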

Additional observations from a re-analysis of the deposited data

How the results depend on the processing

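No paired analysis was possible because each group is 1 library, and no library could be left out. Counts of the 32 enzyme genes at least 2-fold lower were most sensitive to the pseudocount: with 0.1 in place of 1 they were 8 after compound 1, 7 after compound 2 and 2 for compound 2 against compound 1, in place of 5, 3 and 1. With a pseudocount of 5, 2 genes and not 4 were higher after compound 2. Upper-quartile scaling, and subtraction of the length and GC trend, each gave 5 lower genes after compound 2. Without the 6 genes that share over 10% of their 31-base words, an alternative added after seeing the data, 1 gene was higher after compound 1 and 0 were lower for compound 2 against compound 1, because CYP4F3 was left out. The other counts stayed within 1.5 times. Of the single-gene ratios of the 16 genes tried, 363 kept their side of 2-fold and their sign, 6 came under 2-fold, 4 passed it and 5 within 2-fold changed sign; no ratio past 2-fold changed sign. With 1 library per group and low members resting on few reads, the ratios of genes near 1 TPM are the least certain.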
